A study of Mus musculus with 24 samples.

Results

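The comparison described here is that of sphingosine-1-phosphate (S1P) with CYM50260, an agonist of the S1P4 receptor, when both were given on the basal side of cultured brain endothelium. It holds the 4 wild-type libraries labelled S1P basal and the 4 labelled S1P4 agonist basal, 8 of the 24 libraries of the series, chosen by their labels and not by any measured value. Of the 18091 genes in the wild-type table, the 12249 with a mean of at least 10 normalized counts over its 20 libraries were tested. The cells were mouse brain microvascular endothelial cells (MBMECs), the primary lining cells of cortical and midbrain microvessels, from the strain C57B/6J. They were treated with puromycin for 48 h, a step meant to remove other cell types, seeded on transwell inserts and treated 48 h later, and RNA was taken after 24 h. The S1P basal group received 50 nM S1P in the lower compartment and the agonist basal group 500 nM CYM50260 there, so the doses differ by design and no dose of either compound was matched to the other. Neighbouring groups, also with 4 libraries each, had the same 50 nM S1P or 500 nM agonist in the upper (apical) compartment, or vehicle. Each library pooled 3 inserts, and the series gives 12 mice per replicate. No source used here gives the ages of the mice. The group of vehicle-treated S1P4 knockout cells was not used because its table was normalized separately. The series' own description calls basal S1P barrier-opening and the basal agonist barrier-tightening, so the comparison asks how the transcriptomes of these 2 states differ when the side of application is the same.

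S1P is a lipid that circulates bound to lipoproteins and albumin and signals through a family of G protein-coupled receptors. In endothelium S1P1, which couples to Gi and Rac, is known for tightening junctions, whereas S1P2, which couples to G12/13, is known for loosening them. S1P4 is best known from lymphocytes and other blood cells. S1P is a ligand of the whole family, whereas CYM50260 is described as selective for S1P4.

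The 8 libraries were of even size, with normalized totals of 4.52 to 4.72 M and an estimated 4.04 to 5.15 M reads on genes. Summed over 20 endothelial marker genes, they held 33226 to 37146 normalized counts with basal S1P and 34771 to 38635 with the basal agonist, and Pecam1 (2430 to 2917 against 2472 to 3035) was among the well expressed genes. Pericyte markers (11 of 12 in the table) summed to 319 to 2361 with basal S1P and 278 to 2239 with the agonist, and fibroblast and meningeal markers (11 of 14) to 631 to 1691 and 824 to 2182. Both sums followed the replicate number more than the compound, and the fibroblast sum was lower with basal S1P than with the agonist in each of the 4 numbers. Most of that gap was 1 gene, Fbln2, singled out after its values were seen, which had 508, 277, 169 and 349 against 902, 916, 355 and 569. Without it the sums were 1183, 982, 462 and 472 with basal S1P and 1252, 1266, 469 and 508 with the agonist, close to each other in numbers 1, 3 and 4. Among defining markers of other cells, Col1a1 ranged from 15 to 216 and from 2 to 257 and Pdgfrb from 52 to 488 and from 63 to 420, while Ptprc stayed at 5 or less, Gfap at 3 or less and Aqp4 at 1 or less in all 8 libraries. Astrocyte markers (9 of 11) summed to 723 to 939 with basal S1P and 680 to 802 with the agonist, neuron markers (9 of 12) to 203 to 518 and 260 to 394, smooth muscle markers (12 of 12) to 4208 to 5609 and 4375 to 5705, oligodendrocyte lineage markers (6 of 12) to 390 to 446 and 388 to 426, and ependymal and choroid plexus markers (7 of 8) to 468 to 600 and 469 to 519. Microglia and macrophage markers (12 of 15) summed to 7 to 87 with basal S1P and 7 to 105 with the agonist, and none of 7 erythroid markers was in the table. Several of the sums above came mostly from a single gene. Gja1 gave 610 to 767 of the astrocyte sums with basal S1P and 507 to 675 with the agonist. Cnp gave 341 to 415 and 331 to 383 of the oligodendrocyte lineage sums. Clic6 gave 418 to 474 and 348 to 413 of the ependymal sums. Smtn was the largest member of the smooth muscle sums, at 1466 to 1723 and 1424 to 1556. Such sums do not by themselves measure the cells they are named for. Fewer cells of a type and less RNA per cell cannot be told apart in these bulk samples, and the part of these cells in the results below was not tested.

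Library 2 of the basal S1P group stood apart. Xist, the RNA of the inactive X chromosome, was at 0, 552, 1432 and 225 normalized counts in basal S1P libraries 1 to 4, against 0, 2507, 1608 and 173 in basal agonist libraries 1 to 4 and 1, 2251, 1063 and 190 in vehicle libraries 1 to 4. Libraries 1, 3 and 4 of the basal S1P group thus lay near the other libraries of their number, and library 2 did not. Values without it are given below for the called genes, for the gene lists whose median it moved by over 1.5 times and for single genes that depended on it.

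**Figure D1:**
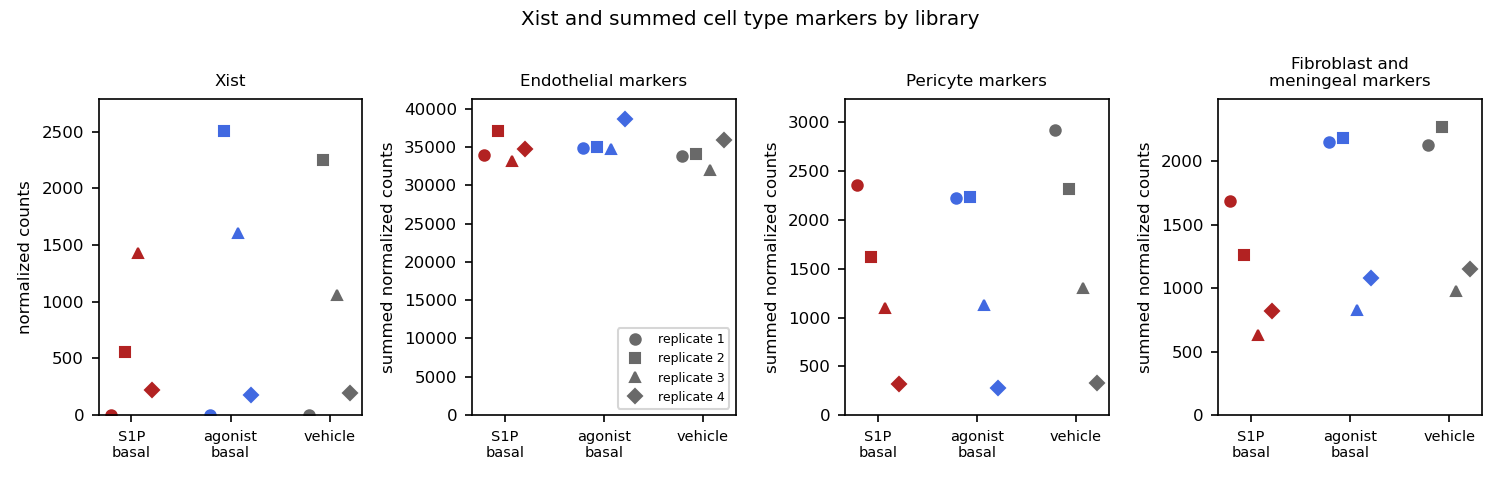
Xist (normalized counts) and the summed normalized counts of endothelial, pericyte and fibroblast markers in each library of basal S1P, basal agonist and vehicle; each symbol is a replicate number. Xist and the pericyte and fibroblast sums go with the replicate number, except in basal S1P library 2, whose Xist of 552 lies far from the 2507 and 2251 of the other libraries with that number.

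In the main fit, of 20 libraries without a term for the replicate number, most transcripts differed between the compounds by less than a doubling. The few genes that passed its test were all lower with basal S1P. The test called 3 genes, which is 0.0245% of the 12249 tested: Cpm, Atoh8 and Ackr4 (limma, Benjamini-Hochberg adjusted p under 0.05). No gene was called higher. Without the adjustment, 179 genes (1.46%) were higher and 247 (2.02%) lower at p under 0.05, 426 in all (3.48%). The 4 basal S1P libraries did not overlap the 4 agonist libraries for 100 higher genes (0.816%) and 106 lower genes (0.865%), 206 in all (1.68%). A fit chosen after the data had been seen, on the 16 libraries without a deviant Xist level and with the replicate number as a block, called 370 genes (3.02%), 146 higher (1.19%) and 224 lower (1.83%). Its values are given among the additional observations. Fits of all 20 libraries with a term for the replicate number also called more genes, some of them higher, as given there. All counts here otherwise refer to the main fit of 20 libraries. The median difference over all genes was 0.00 on the log2 scale, 6238 genes (50.9%) being higher and 6010 lower. The 95% interval of a gene's difference had a median half-width of 0.269, and it lay inside -1 to 1, a doubling either way, for 11017 genes (89.9%). It lay inside the narrower bounds of -0.5 to 0.5 for 64.8% of genes. Only 13 genes were estimated at 1 or more and 36 at -1 or less.

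**Figure D2:**
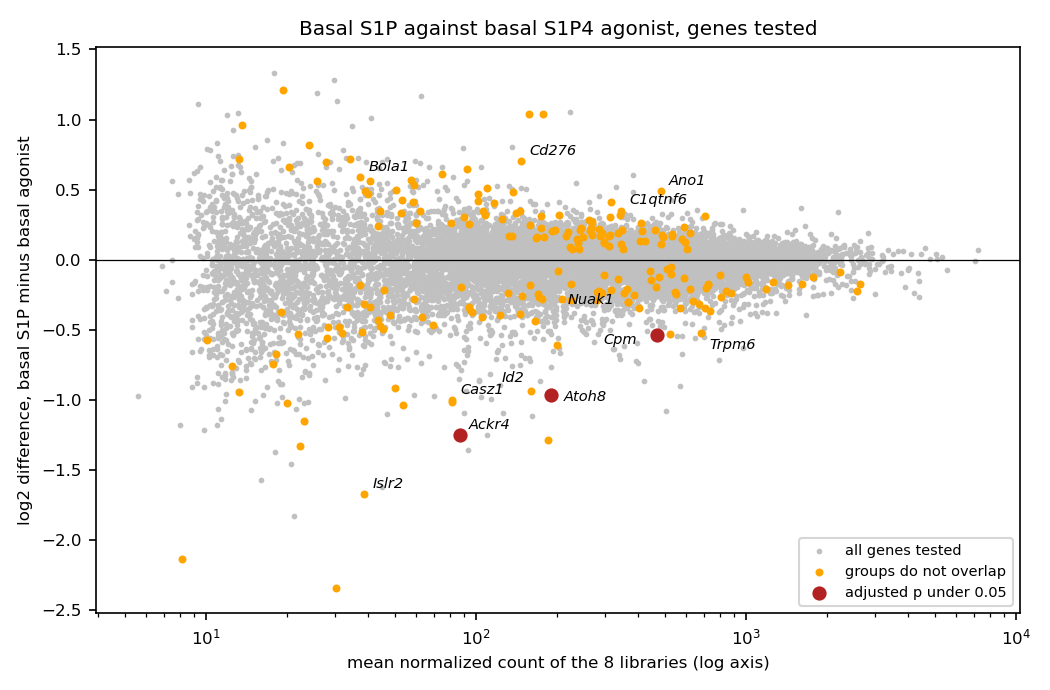
Log2 difference of basal S1P minus basal agonist (vertical axis) against the mean normalized count of the 8 libraries (log axis) for the 12249 genes tested. The 3 called genes, Cpm, Atoh8 and Ackr4, lie below 0; the spread of the uncalled genes widens toward low levels.

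Cpm encodes carboxypeptidase M, a membrane-anchored enzyme that trims basic residues from the ends of peptides such as bradykinin. The gene (ENSMUSG00000020183, plus strand) spans bases 117629500 to 117687352 of chromosome 10 in mm10. Its normalized counts were 356, 381, 363 and 434 with basal S1P, against 550, 589, 530 and 557 with the basal agonist. Every basal S1P library was below every agonist library, library 4 coming closest. The means were 383.5 ± 35.3 and 556.5 ± 24.5 (SD, n = 4 each), a log2 difference of -0.54 ± 0.07 (SE; adjusted p = 0.00407), or a fold of 0.688.

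Atoh8 encodes a basic helix-loop-helix transcription factor known in endothelium as a target of bone morphogenetic protein (BMP) signalling. The gene (ENSMUSG00000037621, minus strand) spans bases 72206177 to 72235577 of chromosome 6. It had 140, 128, 137 and 109 normalized counts with basal S1P, against 237, 270, 278 and 220 with the basal agonist. The groups were far apart, with narrow spread in both. The means were 128.5 ± 14.0 and 251.2 ± 27.4 (SD, n = 4 each), a log2 difference of -0.96 ± 0.13 (SE; adjusted p = 0.00407) and a fold of 0.513.

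Ackr4 encodes an atypical chemokine receptor that takes up and removes homeostatic chemokines without signalling through G proteins. The gene (ENSMUSG00000079355, minus strand) spans bases 104084157 to 104126933 of chromosome 9. It had 52, 61, 38 and 55 normalized counts with basal S1P, against 139, 135, 91 and 130 with the basal agonist. Library 3 was the lowest of its group with either compound, and the groups did not overlap. The means were 51.5 ± 9.75 and 123.8 ± 22.1 (SD, n = 4 each), a log2 difference of -1.25 ± 0.21 (SE; adjusted p = 0.0484) and a fold of 0.421, the largest of the 3.

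Cpm and Atoh8 were called in each fit that left out 1 of the 8 libraries, whereas the call of Ackr4 was lost in 7 of these 8 fits, with adjusted p-values of up to 0.308, and held only without agonist library 3. Without basal S1P library 2 the log2 differences were -0.54 for Cpm (adjusted p = 0.0219), -0.96 for Atoh8 (adjusted p = 0.0219) and -1.34 for Ackr4 (adjusted p = 0.0680). A fit on the 8 libraries alone, which has fewer samples for the spread, called 0 genes, with adjusted p-values of 0.280 for Cpm, 0.134 for Atoh8 and 0.280 for Ackr4 and 349 genes at an unadjusted p under 0.05.

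The windows around the starts of the 3 genes called in the main fit are shown. All 3 were found among the RefSeq promoters of GRCm38.p6 (the mm10 assembly), from 250 bases before to 50 bases after the start. Capitals mark matches, on either strand, to any of 5 short motifs: the GC box GGGCGG, the E-box CACGTG, the GC-rich SMAD element GGCGCC, the cyclic AMP response element TGACGTCA and the TEAD element GGAATG. The windows are chr10:117629250-117629549 on the plus strand for Cpm, chr6:72235528-72235827 on the minus strand for Atoh8 and chr9:104126594-104126893 on the minus strand for Ackr4. The RefSeq start of Ackr4 differs from that of the deposited table, so its window lies inside the span given above and not upstream of it.
Cpm: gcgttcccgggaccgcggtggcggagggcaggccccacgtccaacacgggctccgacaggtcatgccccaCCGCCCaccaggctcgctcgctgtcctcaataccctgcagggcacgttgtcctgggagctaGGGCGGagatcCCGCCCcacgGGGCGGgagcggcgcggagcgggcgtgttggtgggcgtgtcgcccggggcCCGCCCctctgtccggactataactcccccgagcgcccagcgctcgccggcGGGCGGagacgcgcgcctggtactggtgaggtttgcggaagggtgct
Atoh8: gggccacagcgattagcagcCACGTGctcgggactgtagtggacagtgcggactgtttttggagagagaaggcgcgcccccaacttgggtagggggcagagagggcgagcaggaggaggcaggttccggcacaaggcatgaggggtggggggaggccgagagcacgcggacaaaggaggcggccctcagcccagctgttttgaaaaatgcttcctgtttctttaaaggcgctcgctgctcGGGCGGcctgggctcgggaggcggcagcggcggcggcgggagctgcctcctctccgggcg
Ackr4: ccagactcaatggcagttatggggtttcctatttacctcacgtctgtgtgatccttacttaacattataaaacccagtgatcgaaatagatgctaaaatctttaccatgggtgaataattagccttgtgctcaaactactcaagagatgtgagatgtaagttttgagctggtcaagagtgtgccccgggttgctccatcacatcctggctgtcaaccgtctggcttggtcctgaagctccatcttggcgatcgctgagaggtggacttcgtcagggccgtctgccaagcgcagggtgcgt
The 3 windows had little in common. That of Cpm held 6 matches to the GC box and had a GC content of 73.7%, that of Atoh8 held 1 GC box and 1 E-box at 66.7% GC, and that of Ackr4 held none of the 5 motifs at 48.7% GC. Over all 32851 windows, whose median GC content was 52.7%, the GC box was present in 35.7%, the E-box in 7.15%, the SMAD element in 11.9%, the cyclic AMP element in 1.79% and the TEAD element in 14.7%. A match is only a description of the letters.

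Genes not called in the main fit are given next, those with the smallest p and no overlap between the groups. Fits with the replicate number as a block or random term did call Trpm6, Casz1, Nuak1 and Id2, as given among the additional observations. Trpm6, a channel-kinase that carries magnesium and calcium, had 550, 463, 623 and 609 normalized counts with basal S1P, against 830, 834, 776 and 766 with the basal agonist (log2 difference -0.52 ± 0.10, adjusted p = 0.104). All basal S1P libraries were lower, library 2 most of all, and without library 2 the difference was -0.43. Casz1, a zinc finger factor needed for vessel assembly in vertebrate embryos, had 49, 38, 74 and 58 against 93, 96, 106 and 141 (log2 difference -1.001 ± 0.21, adjusted p = 0.287). Its difference was -0.84 without library 2. Nuak1, a kinase related to the AMP-activated kinase, had 371, 300, 390 and 355 against 453, 451, 444 and 445 (log2 difference -0.35 ± 0.07, adjusted p = 0.287). The agonist libraries of Nuak1 were nearly equal, and all basal S1P libraries lay below them, library 2 the furthest. Without library 2 the difference of Nuak1 was -0.27. Id2, an inhibitor of helix-loop-helix factors and a BMP target, had 146, 113, 88 and 94 against 229, 230, 167 and 211 (log2 difference -0.93 ± 0.21, adjusted p = 0.412).

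The other 5 of the 12 genes named on the lower side were Gpr146, an orphan receptor, Reck, a membrane-anchored inhibitor of metalloproteases and co-receptor for Wnt7, the leucine-rich repeat protein Islr2, the tyrosine kinase Tec and the chondroitin sulfotransferase Chst15. Islr2, at low counts, had 25, 8, 14 and 30 with basal S1P, against 47, 64, 49 and 71 with the agonist (log2 difference -1.67 ± 0.40, adjusted p = 0.636). Without basal S1P library 2 its difference was -1.33. Reck had 625, 564, 494 and 607 against 708, 707, 693 and 698 (log2 difference -0.30 ± 0.07, adjusted p = 0.580). The differences of Gpr146, Tec and Chst15 lay between -0.35 and -0.25, with adjusted p-values of 0.495 to 0.723.

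No gene was called on the higher side in the main fit. The 12 with the smallest p among those whose groups did not overlap had adjusted p-values of 0.636 to 0.911 there. With the replicate number as a block, limma called C1qtnf6 (adjusted p = 0.0418) and Ano1 (0.00648) higher. With the number as a random term the adjusted p-values were 0.0368 and 0.0204. C1qtnf6, a secreted relative of complement C1q and tumour necrosis factor, had 363, 393, 393 and 394 normalized counts with basal S1P, against 295, 288, 316 and 311 with the agonist (log2 difference 0.35 ± 0.09, adjusted p = 0.636). Its basal S1P libraries were close together, and library 1 was the lowest. Ano1, a calcium-activated chloride channel, had 506, 481, 650 and 625 against 340, 384, 455 and 429 (log2 difference 0.49 ± 0.12, adjusted p = 0.723), with libraries 3 and 4 the higher ones under both compounds. Cd276, an immune checkpoint molecule of the B7 family, had 199, 156, 157 and 213 against 95, 116, 90 and 147 (log2 difference 0.70 ± 0.20, adjusted p = 0.911). Its groups were separated by little, basal S1P library 2 at 156 lying next to agonist library 4 at 147. Pald1, an endothelial phosphatase-domain protein, had 783, 746, 684 and 918 against 654, 611, 569 and 678 (log2 difference 0.31 ± 0.08, adjusted p = 0.905). Bola1, a mitochondrial protein of the BolA family, had 39, 55, 45 and 42 against 28, 28, 32 and 30 (log2 difference 0.59 ± 0.15, adjusted p = 0.723). Bola1 was the exception among the 24 named genes in that the agonist libraries also lay below all 4 vehicle libraries (33, 39, 36 and 36). The others were the small GTPase Rhoq, the annexin Anxa1, the cell cycle regulator Rgcc, the helix-loop-helix factor Mlx, the netrin receptor Unc5a and the transcripts K230015D01Rik and 6430562O15Rik, with differences of 0.21 to 0.61.

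**Figure D3:**
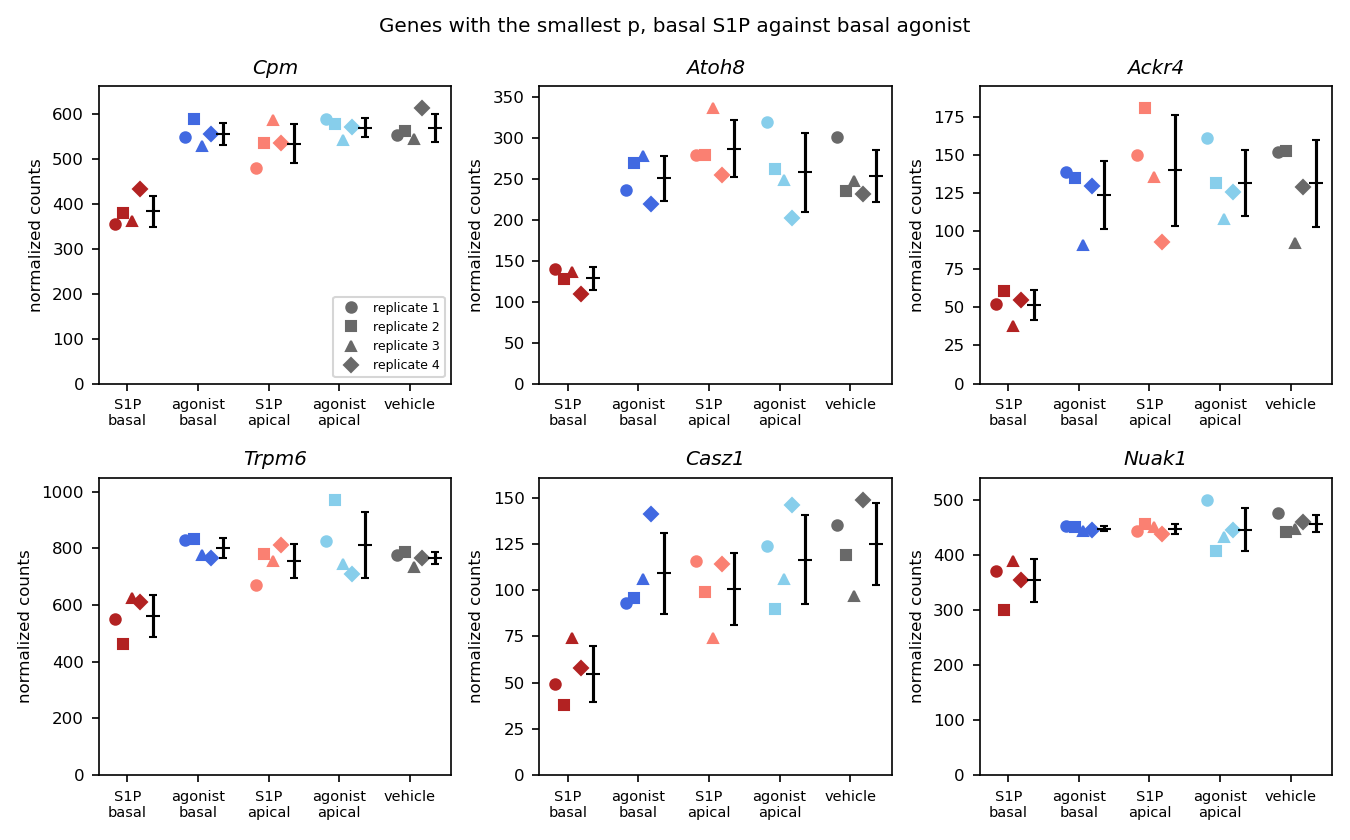
Normalized counts of Cpm, Atoh8, Ackr4, Trpm6, Casz1 and Nuak1 in each library of basal S1P, basal agonist, apical S1P, apical agonist and vehicle; bars give the mean and SD of 4 libraries, and symbols the replicate number. In all 6 genes the 4 basal S1P libraries lie below the 4 basal agonist libraries.

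Vehicle and the apical libraries place these differences. Vehicle libraries had 554, 562, 545 and 614 normalized counts of Cpm, 301, 236, 248 and 232 of Atoh8 and 152, 153, 92 and 129 of Ackr4. These values overlap those of the basal agonist for each gene and lie above all of basal S1P. Against vehicle, basal S1P differed by -0.57 for Cpm (adjusted p = 0.00191), -0.98 for Atoh8 (adjusted p = 0.00325) and -1.33 for Ackr4 (adjusted p = 0.0225), and these 3 were the genes called there too, 0.0245% of those tested. The basal agonist differed from vehicle by -0.03 ± 0.07, -0.02 ± 0.13 and -0.08 ± 0.21 (SE) for the 3 genes, and 0 genes were called over the whole table, with 38 at an unadjusted p under 0.05. Both comparisons share the vehicle libraries, and the first shares the basal S1P libraries with the comparison of the compounds, so they are not independent of it. Over the 24 genes named above, the basal agonist mean differed from vehicle by at most 0.287 on the log2 scale, and the vehicle libraries overlapped those of the agonist for 23 and those of basal S1P for 6 (Id2, Bola1, Rhoq, Mlx, Unc5a and 6430562O15Rik). The 24 were chosen on the difference between the compounds, so these counts are a description.

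On the apical side the same compounds at the same doses gave no called gene (0% of 12249, with 101 at an unadjusted p under 0.05). Apical S1P libraries 3 and 4 (Xist 525 and 1417) and apical agonist library 2 (1382) also had Xist levels unlike the others of their number. The apical values and list medians and the interaction below rest on groups that hold these libraries. Cpm had 480, 536, 587 and 535 normalized counts with apical S1P, against 590, 578, 542 and 572 with the apical agonist. Atoh8 had 279, 279, 337 and 255 against 320, 262, 249 and 203. Ackr4 had 150, 181, 136 and 93 against 161, 132, 108 and 126. The apical groups overlapped for all 24 named genes, with differences of 0.207 or less in size. Whether the difference between the compounds depended on the side was tested by an interaction term, which called 0 genes (183 at an unadjusted p under 0.05). More genes were called for it with the replicate number as a block and without the libraries of deviant Xist, as given among the additional observations. For Atoh8 the basal difference exceeded the apical one by -1.13 ± 0.18 (SE, adjusted p = 0.102), for Cpm by -0.44 ± 0.10 (adjusted p = 1.00) and for Ackr4 by -1.31 ± 0.30 (adjusted p = 1.00). The call of an interaction depended on the fit: over 31 alternatives it was made for Atoh8 in 5 (adjusted p of 0.00134 to 0.755), for Ackr4 in 4 (0.000511 to 1.00) and for Cpm in 0. Library weights called both Atoh8 and Ackr4 (adjusted p = 0.0400 each), and leaving out apical agonist library 1 called Atoh8 (adjusted p = 0.0187).

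**Figure D4:**
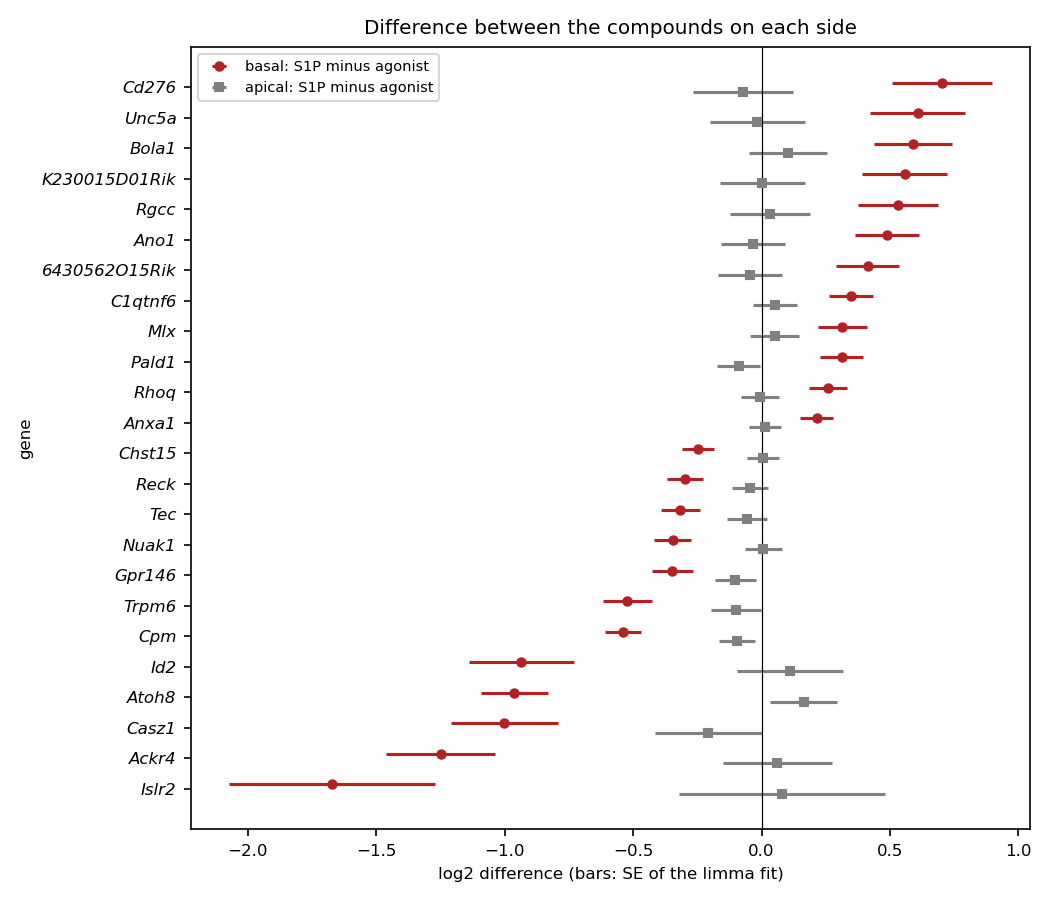
Log2 difference of S1P minus agonist on the basal side (circles) and on the apical side (squares) for the 24 named genes, with bars of 1 SE from the limma fit. The basal values run from -1.67 to 0.70 and were used to choose the genes; the apical values lie within 0.207 of 0.

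The receptors and the enzymes that make, break down and carry S1P were examined next. None of the S1P receptor genes differed detectably. S1pr1, the main endothelial receptor, had 1278, 1627, 1577 and 1673 normalized counts with basal S1P, against 1256, 1302, 1695 and 1732 with the agonist, a log2 difference of 0.05 with a 95% interval of -0.23 to 0.32. S1pr4, the receptor that the agonist addresses, had 114, 160, 161 and 144 against 132, 122, 172 and 139, a difference of 0.03 (-0.31 to 0.37). S1pr2 had 72, 77, 78 and 71 against 66, 56, 91 and 65, a difference of 0.12 (-0.29 to 0.53). The groups overlapped for all of them, and the intervals exclude a doubling. S1pr3, at 51, 26, 21 and 5 against 33, 48, 30 and 1, was too low and too variable between replicate numbers to say more than that its interval ran from -1.64 to 2.06. S1pr5 was not among the genes of the table.

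Of 15 tested genes for the synthesis, breakdown and transport of S1P, 0 were called. The smallest p belonged to Acer2, an alkaline ceramidase that releases sphingosine, with 698, 573, 389 and 622 normalized counts under basal S1P, against 898, 875, 670 and 856 under the agonist (log2 difference -0.55 ± 0.18, adjusted p = 0.911). Its groups overlapped through basal S1P library 1. Spns2, the endothelial exporter of S1P, had 755, 1094, 689 and 699 against 930, 830, 863 and 956 (log2 difference -0.17 ± 0.12, adjusted p = 0.911), library 2 alone lying above all agonist libraries. Without library 2 the difference of Spns2 was -0.32, and without 1 other library it came as near 0 as -0.10. Mfsd2a, a transporter of lysolipids known for limiting transcytosis at the blood-brain barrier, had 35, 49, 64 and 62 against 33, 39, 32 and 36 (log2 difference 0.54 ± 0.27, adjusted p = 0.911).

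BMP signalling acts through SMAD proteins and is known for keeping endothelium quiescent. The BMP and TGF-beta list held 1 of the 3 called genes, Atoh8. That gene was listed with its earlier calls in these data known, so its call is no finding about the list. Of the 28 BMP and TGF-beta genes tested, 1 was called (Atoh8, lower), 18 were lower and 10 higher, and the median was -0.03 (-0.10 without basal S1P library 2). Atoh8 and Id2, both targets of the pathway, were the members with the largest negative differences, -0.96 and -0.93. The ligand gene Bmp6 had 602, 857, 612 and 637 normalized counts with basal S1P, against 885, 852, 942 and 964 with the agonist (log2 difference -0.44 ± 0.12, adjusted p = 0.894). Libraries 1, 3 and 4 lay well below the agonist libraries, and library 2 lay among them. When the 4 libraries with a deviant Xist level were left out of the fit, basal S1P library 2 among them, Bmp6 was called as well (-0.56, adjusted p = 0.0138), and 4 genes were called in all. The other targets Id1 and Id3 differed by -0.07 ± 0.09 and -0.08 ± 0.09, and the receptors Acvrl1 and Eng by -0.02 ± 0.08 and -0.03 ± 0.10, none of them called; these 4 were chosen after their values were seen.

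Most genes of inflammation and interferon response had lower means with basal S1P than with the agonist. How far the size of these differences rested on basal S1P library 2 differed between the lists and the fits. The 1 called member was Ackr4, a receptor for homeostatic chemokines that was listed with its earlier calls in these data known. Its call is therefore no finding about the list. Of 29 tested genes for NF-kB targets, chemokines and leukocyte adhesion, 24 were lower and 5 higher, with a median of -0.19 beside 0.00 for all genes, and 1 was called (Ackr4). Without basal S1P library 2 the median was -0.08. In the fit on 16 libraries with the replicate number as a block, also without that library, it was -0.19. On the apical side it was -0.12. Icam1, the adhesion molecule for leukocyte integrins, had 690, 676, 828 and 631 normalized counts with basal S1P, against 853, 795, 1034 and 946 with the agonist (log2 difference -0.36 ± 0.11, adjusted p = 0.911). The groups overlapped only through library 3, the highest of its group under both compounds. Il1r1, the interleukin-1 receptor, had 516, 551, 490 and 455 against 574, 569, 657 and 565 and did not overlap (log2 difference -0.23 ± 0.09, adjusted p = 0.911).

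Of 41 tested interferon response genes, 37 were lower and 4 higher, with a median of -0.19, and 0 were called. Without basal S1P library 2 the median was -0.08, with 33 lower, and apical S1P against the apical agonist gave -0.26. The smallest p-values were those of the guanylate-binding proteins, interferon-induced GTPases. Gbp3 had 376, 339, 348 and 454 against 506, 553, 451 and 580 (log2 difference -0.46 ± 0.12, adjusted p = 0.723), Gbp2 593 ± 60.1 against 751 ± 90.9 and Gbp5 260.8 ± 75.1 against 424.2 ± 93.9 (SD, n = 4 each). The guanylate-binding proteins are close paralogs, so the counting may have split reads between them. Of 17 tested genes of antigen presentation, 15 were lower, the median was -0.06 and 0 were called; Tap1, a subunit of the peptide transporter, had 448, 420, 446 and 532 against 529, 543, 521 and 539 (log2 difference -0.21 ± 0.09, adjusted p = 0.911). Members of one list tend to move together within a library, so the counts of a list's direction carry no test. Summed microglia and macrophage markers, at 7 to 87 with basal S1P and 7 to 105 with the agonist, stand beside these lists, and their part in them was not tested.

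Transporters that mark brain endothelium were also mostly lower with basal S1P: 17 of 24 tested were lower and 7 higher, with a median of -0.16, and 0 were called. The median was -0.17 without basal S1P library 2 and -0.07 on the apical side. Besides Trpm6, the smallest p-values were those of the organic anion transporter Slc22a8, which had only 21, 9, 2 and 12 normalized counts with basal S1P, against 35, 24, 15 and 26 with the agonist (log2 difference -1.38 ± 0.51, adjusted p = 0.911; -0.81 without basal S1P library 3), and of the efflux pump Abcc4. Abcc4 had 1170, 1058, 972 and 1194 against 1236, 1221, 1230 and 1388, without overlap (log2 difference -0.21 ± 0.08, adjusted p = 0.911). Of 23 tested genes of the Wnt barrier programme, 18 were lower, the median was -0.09 and 0 were called, Reck having the smallest p. Of 19 Notch genes, 14 were lower with a median of -0.09 and 0 called; without basal S1P library 2, 10 were lower and the median was -0.02. Notch1 had 2600, 2145, 2572 and 2616 against 2734, 2807, 2891 and 2734 (log2 difference -0.17 ± 0.09, adjusted p = 0.911; -0.10 without library 2), and the groups did not overlap. In the xenobiotic list, where 9 of 19 were lower and the median was 0.02 (-0.0085 without basal S1P library 2), Ahr, the aryl hydrocarbon receptor, had 338, 216, 194 and 298 against 484, 397, 315 and 465 (log2 difference -0.68 ± 0.22, adjusted p = 0.911).

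Junction genes, the textbook determinants of barrier tightness, had no called member in the fit of 20 libraries, and most had narrow intervals. Of 16 tested tight junction genes, 10 were lower and 6 higher, the median was -0.03 (0.01 after quantile normalization of the libraries), and the 95% interval lay within -0.5 to 0.5 for 13. Cldn5, the dominant claudin of brain endothelium, had 799, 970, 959 and 959 normalized counts with basal S1P, against 802, 867, 972 and 1028 with the agonist, a difference of 0.01 with an interval of -0.17 to 0.18. Ocln, encoding occludin, had 1021, 1111, 887 and 1011 against 1074, 989, 1029 and 1167, a difference of -0.08 (-0.21 to 0.05). The scaffold gene Tjp1 averaged 2803 ± 75.1 and 2926 ± 212 (SD, n = 4 each), a difference of -0.06 (-0.19 to 0.07). The groups overlapped for all 3 of these genes, and the intervals exclude a change of 0.5 on the log2 scale. The tight junction member with the smallest p was Marveld2, the tricellulin gene, with 195, 160, 159 and 196 against 207, 217, 178 and 249 (log2 difference -0.26 ± 0.13, adjusted p = 0.911).

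Of 19 adherens junction genes, 13 were higher and 6 lower, the median was 0.03 (-0.0035 without basal S1P library 2), 0 were called, and 18 had an interval within -0.5 to 0.5. Cdh5, encoding VE-cadherin, had 2658, 3191, 2943 and 2906 normalized counts with basal S1P, against 2708, 2707, 3003 and 3254 with the agonist, a difference of 0.00 (-0.14 to 0.15). Pecam1 differed by -0.01 (-0.16 to 0.14). Ctnnbip1, the member with the smallest p, was higher, with an interval of 0.02 to 0.35, and was not called. Jup, encoding plakoglobin, had 1490, 1572, 1609 and 1860 against 1231, 1289, 1443 and 1706 (log2 difference 0.21 ± 0.10, adjusted p = 0.911), with each basal S1P library above the agonist library of its number and overlapping groups. Of 18 genes of caveolae and transcytosis, 11 were higher, with a median of 0.03 and 0 called; without basal S1P library 2, 8 were higher and the median was -0.01.

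The lists with the highest medians reached about 0.1, and this rested on basal S1P library 2 to a degree that differed between the lists. All 33 tested nuclear genes of oxidative phosphorylation were higher, with a median of 0.11, a highest difference of 0.245 (Atp5o, a subunit of ATP synthase) and 0 called. Without that library 28 of the 33 were higher, with a median of 0.04 and 0.11 for Atp5o. MRTF and SRF targets, genes tied to the state of the actin cytoskeleton, were higher in 25 of 26 with a median of 0.08 and 0 called; Srf itself had 400, 508, 536 and 483 normalized counts with basal S1P, against 364, 430, 456 and 431 with the agonist (log2 difference 0.19 ± 0.11, adjusted p = 0.911). Of 25 genes of the stress response and serine synthesis 22 were higher (median 0.10), of 25 of cholesterol synthesis 23 (median 0.10), of 25 of hypoxia and glycolysis 23 (median 0.08) and of 42 cytosolic ribosomal proteins 37 (median 0.04), with 0 called in each. Without library 2 the medians were 0.02 for MRTF and SRF targets (17 higher) and -0.01 for ribosomal proteins (15 higher). They were 0.06 for stress response and serine synthesis (20 higher), 0.07 for cholesterol synthesis (20 higher) and 0.03 for hypoxia and glycolysis (19 higher). On the apical side they were 0.01 for oxidative phosphorylation and -0.04 for MRTF and SRF targets. Ankrd37, a hypoxia-induced gene, had 108, 116, 129 and 114 against 86, 93, 101 and 70 without overlap (log2 difference 0.42 ± 0.14, adjusted p = 0.911). Of 36 genes of matrix and proteases, 24 were higher with a median of 0.05, and the 1 called member, Cpm, was lower. Itgb3, the integrin beta chain of the vitronectin receptor, had 1553, 1772, 1992 and 1861 against 1370, 1449, 1621 and 1643 (log2 difference 0.24 ± 0.10, adjusted p = 0.911).

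The remaining lists had 0 called members. Their medians were -0.06 for 24 immediate-early genes, -0.04 for 19 YAP and TAZ targets, -0.01 for 22 shear and vasoactive genes, -0.01 for 19 genes of the VEGF and angiopoietin pathway, 0.03 for 32 cell cycle genes and 0.09 for 23 genes of coagulation and fibrinolysis. The shear and the VEGF medians changed sign under upper-quartile scaling, to 0.0011 and 0.0030. Without basal S1P library 2 the medians were -0.04 for coagulation and fibrinolysis, -0.02 for the cell cycle, -0.01 for immediate-early genes, -0.09 for YAP and TAZ targets and -0.04 for shear and vasoactive genes. Klf4, a shear-induced factor, had 232, 91, 132 and 398 normalized counts with basal S1P, against 225, 247, 167 and 487 with the agonist (log2 difference -0.50 ± 0.45, adjusted p = 0.911). The groups overlapped, and the difference was -0.17 without basal S1P library 2 and -0.88 without basal S1P library 4.

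**Figure D5:**
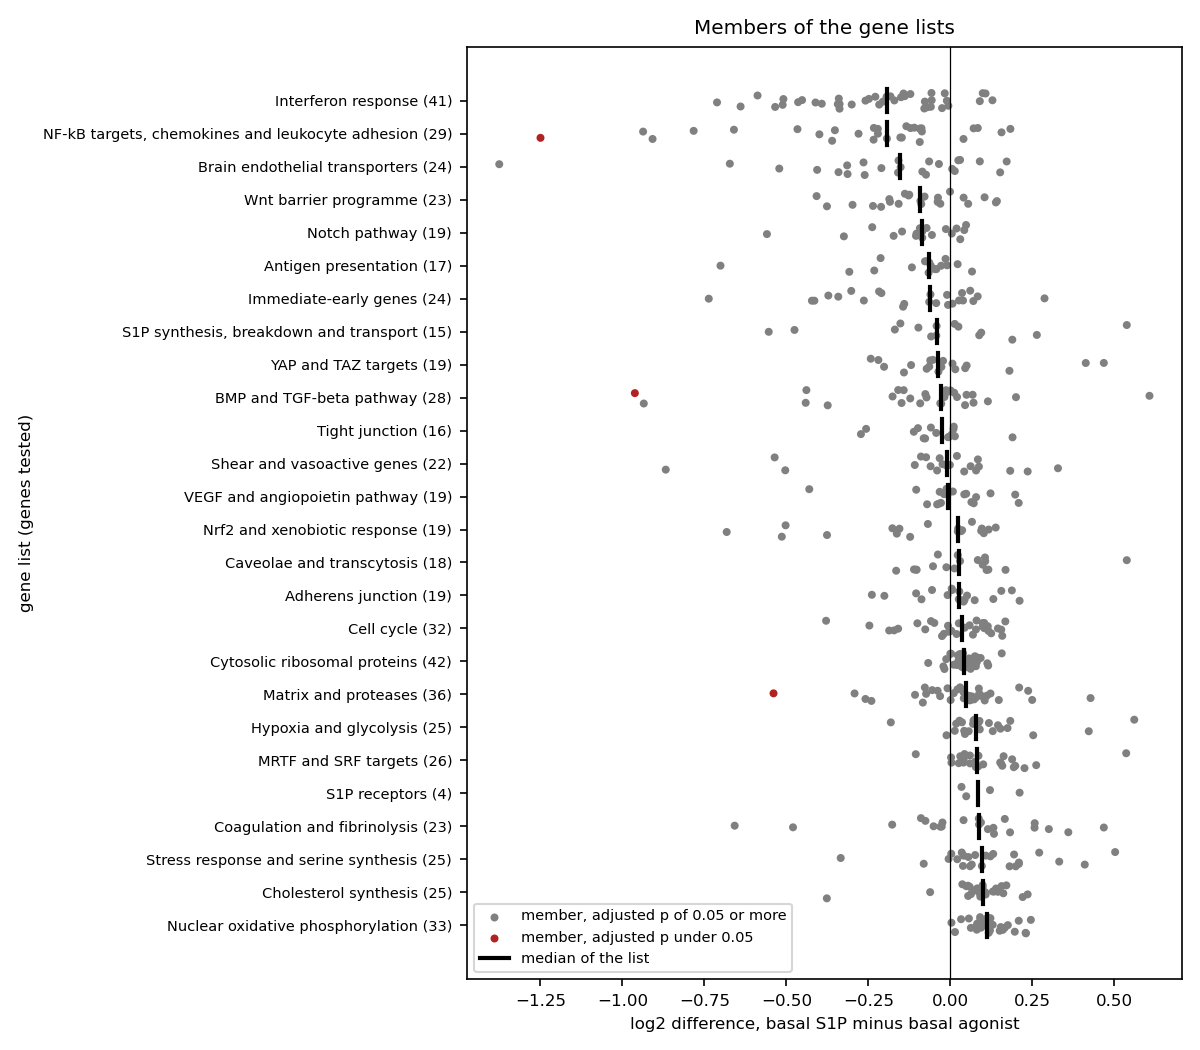
Log2 difference of basal S1P minus basal agonist for each tested member (points) of the gene lists shown, with the number tested in brackets and the list's median as a bar; red points are the 3 called members. List medians run from -0.19 (interferon response and NF-kB) to 0.11 (oxidative phosphorylation); without basal S1P library 2 these 3 medians are -0.08, -0.08 and 0.04.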

How the data were processed

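RNA of 20 wild-type libraries in 5 groups of 4 was used, 8 of them in the comparison itself. Per the submitters' processing notes, the tools were STAR 2.7.3a, Trimmomatic 0.38, FastQC, DESeq2 1.26.0 and featureCounts 1.6.5 of Subread, and the build was mm10. No source used here states the strand setting or what was done with duplicates. The authors deposited a signal per gene in whole numbers, read here from the values as gene counts divided by a factor per library and rounded, and called normalized counts. From the steps of the deposited signal, 1 read was worth 0.887 to 1.05 in basal S1P libraries and 0.898 to 1.17 in basal agonist libraries; whole reads could not be recovered after rounding, and count models were not fitted. Even the highest gene, Hspg2, held only 0.153% of the mean total, and differences of abundant genes may be understated.

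Log2(value + 1) was fitted with limma 3.58.1 in R 4.3.3 as 5 group means over 20 libraries, with a mean-dependent prior variance, for genes with a mean of at least 10, and two-sided p-values were adjusted over all 12249 such genes (Benjamini-Hochberg); a gene was called below 0.05. The fit was tested on simulated data. The added 1 makes differences of low genes too small. No source ties same-numbered libraries to 1 pool of mice, so the p-values reflect only how these libraries varied. Named were called genes, then genes with separate groups by smallest p up to 12 per direction, the S1P receptors, genes called in other comparisons of basal S1P, and up to 3 members of each of 27 lists by p (1 list is not reported here); Cldn5, Cdh5, Pecam1 and Tjp1 were added after their values were seen. Members, lists and tests were chosen with earlier results of these data known. The lists hold Ackr4, Atoh8, Cpm and Trpm6, which had been called in other comparisons of basal S1P. Alternatives covered scaling, pseudocount, low-value filter, prior variance, library weights, the libraries in the fit and the replicate number.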

Additional observations from a re-analysis of the deposited data

Results flagged for a closer look

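For the genes named in the text, 10 of 112 groups of 4 libraries held 1 library far from the other 3, by Dixon's criterion for 4 values at the 95% level. Chance alone gives about 1 in 20 independent groups. These groups share the same libraries and their genes were chosen, many by their values, so no excess over chance can be read from the count. Basal S1P library 2 accounted for 3 of them: Bmp6 at 857 normalized counts (nearest library 637), Notch1 at 2145 (nearest 2572) and Spns2 at 1094 (nearest 755). This is also the library with the deviant Xist level, and its part in these values was not tested. In basal S1P library 1, C1qtnf6 was at 363 (nearest 393) and Cldn5 at 799 (nearest 959). In basal S1P library 3, Gpr146 was at 416 (nearest 530) and Unc5a at 121 (nearest 83). Among basal agonist libraries, Abcc4 was at 1388 in library 4 (nearest 1236), Il1r1 at 657 in library 3 (nearest 574) and Ptprb at 3923 in library 3 (nearest 4677).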

How the results depend on the processing

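Of the 23 alternatives, Cpm and Atoh8 kept their direction and call in 22 and Ackr4 in 12, all 3 being lost when only the 8 libraries compared were fitted, which leaves fewer samples for the spread (0 genes called; likewise 0 for basal S1P against vehicle). Ackr4 also lost its call at a pseudocount of 5 (adjusted p = 0.0556), without the low-value filter (0.0513), with a constant prior variance (0.0738) and without each single library other than agonist library 3. Leaving out 1 library gave 2 to 3 called genes, against 2 to 4 for basal S1P against vehicle, 0 to 1 for the interaction and 0 for the apical comparison and for basal agonist against vehicle. Library weights called 2 genes in the interaction and 13 for basal S1P against vehicle. Depth limits low genes such as S1pr3 and Islr2.

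Replicate numbers did not pair the samples by the rule used: same-numbered basal S1P and basal agonist libraries had correlations of deviations of 0.74, -0.04, 0.58 and 0.70, and number 2 fell below 0.1. A fit with the replicate number as a block called 18 genes (4 higher, 14 lower), and 17 (3 higher, 14 lower) with the number as a random term. Cpm, Atoh8 and Ackr4 were among both. Also lower in both were Trpm6, Casz1, Nuak1, Id2, Tec, Ahr, Gbp3, Cbx7 and C1qtnf9, and higher in both were Ano1, C1qtnf6 and Crmp1. Only the block called Itgb3 (higher), Selp and Gbp5 (lower), and only the random term Gpr146 and Reck (lower). The block gave 2 genes for the interaction and 47 for basal S1P against vehicle, and the random term 2 and 15. With the block and without the 4 libraries of deviant Xist, a choice made after seeing the data, the counts were 370, 21 and 518. The cause of these increases was not tested.

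Cpm, Atoh8 and Ackr4 changed direction in none of the 23 alternatives. The sign changed for 6 uncalled genes, 5 of them near 0 and S1pr3 at low counts. Without 1 library, log2 differences ran from -0.031 to 0.13 for S1pr1, -0.84 to 0.81 for S1pr3, -0.032 to 0.14 for S1pr4, -0.053 to 0.076 for Cldn5, -0.038 to 0.058 for Cdh5 and -0.050 to 0.048 for Pecam1. Pecam1 was 0.0031 with upper-quartile scaling, 0.012 with quantile normalization and 0.047 with library weights, where S1pr3 was -0.72; Cdh5 was -0.015 with quantile normalization. Without the 4 libraries, S1pr4 was -0.019, Cldn5 -0.017 and Cdh5 -0.038, and with the block too -0.10, -0.046 and -0.064, with S1pr1 at -0.043.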

Other observations

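The libraries with an Xist level unlike the others of their number were basal S1P library 2, apical S1P libraries 3 and 4 and apical agonist library 2. In the other 16 libraries, all 25 pairs of same-numbered libraries from different groups deviated from their group means together, with correlations of 0.14 to 0.80; different-numbered libraries reached up to 0.66. Within these libraries the difference between the compounds could be read number by number, for numbers 1, 3 and 4. This reading was chosen after the data had been seen, and it rests on 3 basal S1P libraries. With the number as a block it called 370 of 12249 genes (3.02%), 146 higher (1.19%) and 224 lower (1.83%). The values below belong to this fit.

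The gene with the smallest p was Enpp2, encoding autotaxin, the enzyme that makes lysophosphatidic acid. It had 578, 620 and 876 normalized counts with basal S1P in numbers 1, 3 and 4, against 859, 950 and 1278 with the basal agonist (log2 difference -0.59 ± 0.04, adjusted p = 7.86e-08). Ackr4 (-1.26), Atoh8 (-0.95) and Cpm (-0.52) were called again. Brain endothelial transporters gave 11 called of 24 tested, all lower: the organic anion transporters Slco1a4, Slco1c1, Slco2b1 and Slc22a8, the efflux pumps Abcc4, Abcb1b and Abcg2, the amino acid and taurine carriers Slc1a1, Slc38a5 and Slc6a6, and the channel Trpm6. Slco1a4 had 898, 492 and 855 with basal S1P, against 1097, 776 and 1265 with the agonist (-0.46 ± 0.07).

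In the BMP list 7 of 28 were called lower (Atoh8, Id2, Bmp6, Bmp4, Bmpr2, Acvr1 and Smad7). Bmp2 was called higher, with 316, 655 and 726 against 217, 284 and 291 (0.90 ± 0.16, adjusted p = 0.00214). Of 29 genes of NF-kB targets and leukocyte adhesion, 7 were called lower (Ackr4, Icam1, Selp, Csf1, Il1r1, Vcam1 and Birc3) and 0 called higher. Of 41 interferon genes, Gbp5, Gbp3, Gbp2 and Iigp1 were called lower. In the matrix list the proteases Adamts4, Adamts9, Mmp14 and Mmp15, the integrin Itgb3 and the basement membrane gene Nid2 were called higher. Cpm and Itga1 were called lower. Ahr (-0.62), its repressor Ahrr (-0.66), Acer2 (-0.54) and Spns2 (-0.33) were called lower as well. Crmp1, a cytosolic partner in semaphorin signalling, had 183, 320 and 276 with basal S1P, against 71, 147 and 162 with the agonist (1.05 ± 0.12), and Ano1 differed by 0.53 ± 0.05.

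Of 19 adherens junction genes, Jup was called higher (0.19 ± 0.04, adjusted p = 0.0182). Ptprb, a phosphatase acting on VE-cadherin and Tie2, was called lower (-0.23 ± 0.05, adjusted p = 0.0102). None of the 16 tight junction genes, 26 MRTF and SRF targets, 33 oxidative phosphorylation genes, 42 ribosomal proteins or 32 cell cycle genes was called in this fit. The positive medians of 0.11 for oxidative phosphorylation and 0.08 for MRTF and SRF targets over all 20 libraries were 0.01 and 0.01 here. The medians also changed to 0.01 for Notch genes, -0.05 for coagulation and fibrinolysis, -0.04 for ribosomal proteins and -0.08 for interferon genes. That of NF-kB targets and leukocyte adhesion was -0.19 here, as it was over all 20 libraries. Fbln2, one of the 10 tested fibroblast markers, was called lower, with 508, 169 and 349 against 902, 355 and 569 (-0.90 ± 0.07). Of pericyte markers 0 of 9 were called, of smooth muscle markers 1 of 12 (lower) and of astrocyte markers 1 of 3 (higher). No tested marker of microglia, neurons, the oligodendrocyte lineage or ependyma was called. The part of these cells in the other differences was not tested. The basal agonist against vehicle gave 0 called genes in this fit and 705 at an unadjusted p under 0.05.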
